A study of Mus musculus with 12 samples.

Results

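Messenger RNA levels of the SR proteins and the heterogeneous nuclear ribonucleoproteins (hnRNPs) were followed in mouse embryonic fibroblasts with and without excision of Vps15. The cells were kept in basal medium or went through a short starvation of amino acids and serum. The genes were taken by name: 31 of the 32721 genes in the deposited table had a symbol made of Srsf and a number (11 genes) or starting with Hnrnp (20 genes). The rule left out 2 pseudogene rows, Hnrnpa1l2-ps and Hnrnpa1l2-ps2. SR proteins carry an RNA-binding domain and a tail rich in arginine and serine; they bind enhancer sequences in exons and promote the use of those exons, and kinases of the SRPK and CLK families set their location and activity by phosphorylating the tail. hnRNPs coat nascent transcripts, often oppose the use of an exon, and also act in export, stability and translation of mRNA. Many genes of both families hold exons whose inclusion sends the transcript to nonsense-mediated decay, and reads counted per gene do not separate such transcripts from coding ones.

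All cells were MEF Vps15f/f, a fibroblast line with floxed Vps15 alleles, kept in DMEM with 4.5 g/L of glucose and 10% serum up to 90% confluence and studied 5 days after transduction with adenovirus. Controls, called WT, received adeno-GFP and carried the floxed alleles too. Vps15KO cells received adeno-CRE, whose recombinase excises floxed DNA. Effects of the recombinase itself thus cannot be told apart from those of Vps15 loss. Pik3r4 encodes Vps15, which regulates class 3 PI3K, the lipid kinase of autophagy. Each genotype was kept in basal medium or moved to EBSS, a salt solution without amino acids, for 2 h. EBSS also lacks the serum of the basal medium, and library names read pLEX_GFP and pLEX_CRE without saying what pLEX stands for. There were 4 groups of 3 poly-A RNA sequencing libraries. No label says that the 3 libraries of a group came from separate cultures, so p-values measure the spread between these libraries, which may be technical.

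The libraries held 21278921 to 21698584 reads in genes. Pik3r4 read 875 ± 10.3 normalized counts (mean ± SD, n = 3) in WT basal, 895 ± 62.7 in WT EBSS, 658 ± 36.7 in Vps15KO basal and 632 ± 35.9 in Vps15KO EBSS. A normalized count is a read count divided by the library's size factor, a number near 1 here. Pik3r4 was thus lower in Vps15KO in both media (log2 -0.40, adjusted p = 8.41e-05, and -0.48, adjusted p = 1.03e-05). Which exons the recombinase removes is not stated in the labels, so reads from the rest of the gene may remain. Among WT libraries, replicate 2 in basal medium and replicate 1 in EBSS stood apart: chi-square per gene against the others of the group was 23.9 and 24.2 for the former and 8.67 and 12.5 for the latter, against 2.97 to 6.55 for all other pairs. Results that rest on them are given with and without them. Of 12 fibroblast markers 11 were tested, and the list's summed level was 510184 to 600213 normalized counts in WT and 283468 to 296981 in Vps15KO. Thy1, a fibroblast surface marker, reached at most 3.18 normalized counts in any library. Of the markers of other cell types, Ptprc, Adgre1, Epcam, Emcn and Tyrobp were below 2 normalized counts in all libraries and Myog was at 0. Others of the leukocyte, muscle and neural lists were well above 0. Their group means ran from 822 to 3449 for Cd68, 715 to 2023 for Tnnt3, 667 to 1263 for Nes and 383 to 831 for Sox2. In such bulk samples, fewer cells of a type and less RNA per cell cannot be told apart.

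Most genes of both families rose in EBSS in both genotypes, and the largest rises were those of SR protein genes. Srsf3, an SR protein of small size that also acts in mRNA export, rose by 1.47 ± 0.07 on the log2 scale (± SE) in WT and by 1.38 ± 0.07 in Vps15KO, and Srsf6, Srsf2 and Srsf5 followed. Srsf9 alone among the 30 genes tested was called lower, in both genotypes. Of the 30, 21 were called higher and 1 lower in WT, where 31.4% of all 14279 genes tested were called higher and 31.3% lower. In Vps15KO 20 were called higher and 1 lower, against 25.9% and 26.1% of all genes. Without both WT libraries that stand apart the counts were 19 and 2 in WT and 22 and 1 in Vps15KO. The libraries of the 2 media did not overlap for 23 genes higher and 1 lower in WT (32.7% and 32.5% of all genes), and for 23 higher and 3 lower in Vps15KO (31.1% and 31.9%). A gene was called at a Benjamini-Hochberg adjusted p under 0.05 in limma, adjusted over all genes tested. The median log2 change was 0.28 over the genes of both families in WT and 0.28 in Vps15KO, while over all genes it was -0.02 in each. By family, the median was 0.50 in WT and 0.56 in Vps15KO for SR genes and 0.25 and 0.23 for hnRNP genes. With quantile normalization the WT split became 16 higher and 3 lower, and with length and GC trends removed 20 and 5.

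**Figure D1:**
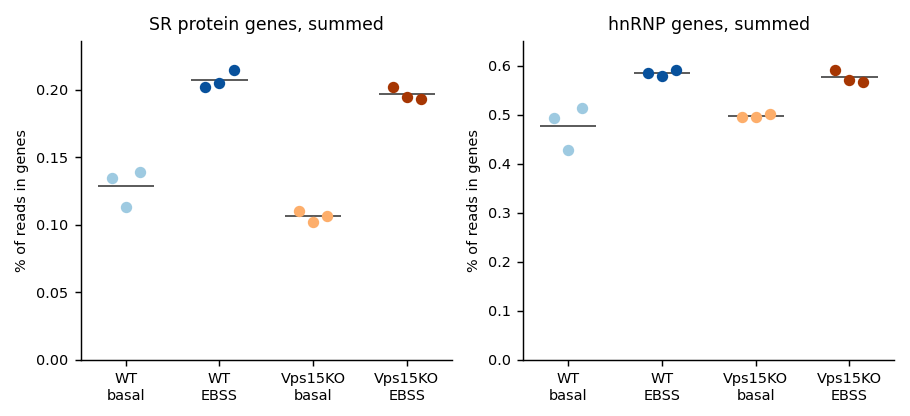
Share of each library's reads in genes that fell in SR protein genes (left) and hnRNP genes (right), in percent; points are libraries, 3 a group, and lines are group means. In both panels the EBSS libraries lie above the basal libraries of the same genotype, with no overlap.

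The 11 SR genes together took 0.135%, 0.113% and 0.139% of the reads in WT basal libraries and 0.202%, 0.205% and 0.215% in WT EBSS. In Vps15KO they took 0.110%, 0.102% and 0.106% in basal medium and 0.202%, 0.195% and 0.193% in EBSS. In basal medium every Vps15KO library thus lay below every WT library. In EBSS they did so too, but narrowly: the highest Vps15KO library read 0.2018% and the lowest WT library 0.2022%. The 20 hnRNP genes took 0.493%, 0.427% and 0.515% in WT basal and 0.585%, 0.580% and 0.591% in WT EBSS. Their Vps15KO shares were 0.496%, 0.496% and 0.502% in basal medium and 0.592%, 0.571% and 0.568% in EBSS, so the genotypes overlapped in each medium. SR genes made up 21.0% to 21.5% of the 2 families' normalized counts in WT basal, 25.7% to 26.7% in WT EBSS, 17.1% to 18.2% in Vps15KO basal and 25.4% in each Vps15KO EBSS library. These shares are descriptions, and no test was made on them.

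Of the SR genes, 10 of 11 passed the filter on low values. Srsf12, the SR protein gene left out, had 0 reads in 10 libraries and at most 1.97 normalized counts in the other two. With 0 reads seen, up to 3 reads could still have been there by counting error. Per kilobase of its longest principal transcript, Srsf5 had the highest level of the family, 4485 normalized counts per kb in WT basal (group mean). Srsf9, Srsf3 and Srsf2 came next at 1311, 1305 and 1304, values closer to each other than the libraries of the group were for any of them. In WT EBSS the order was Srsf5 at 7575, Srsf3 at 3636, Srsf2 at 2414 and Srsf6 at 1766 normalized counts per kb. Srsf4 was the lowest of those tested, at 134 in WT basal and 138 in WT EBSS.

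**Figure D2:**
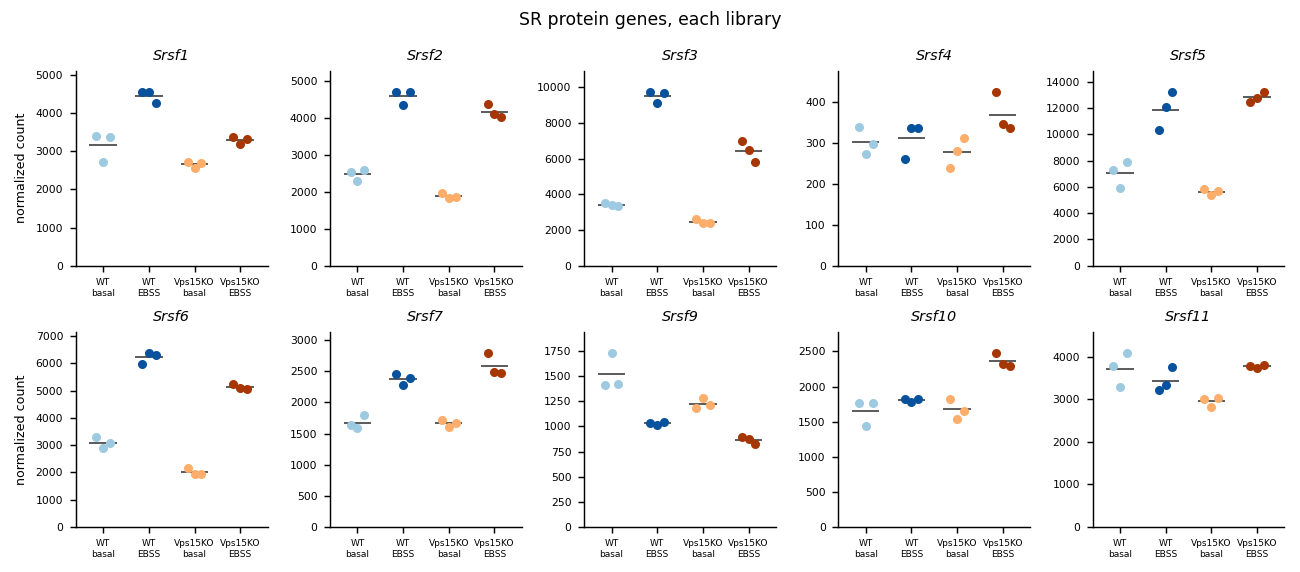
Normalized counts of the 10 SR protein genes tested, on a linear axis from 0; points are libraries, 3 a group, and lines are group means. Srsf2, Srsf3, Srsf5 and Srsf6 show EBSS libraries above basal libraries in both genotypes, and Srsf9 shows them below.

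Srsf3 (chr17:29032660-29043372, plus strand, build GRCm38, as all positions here) read 3508, 3392 and 3346 normalized counts in WT basal and 9754, 9105 and 9696 in WT EBSS. Vps15KO libraries read 2631, 2372 and 2358 in basal medium and 6972, 6501 and 5786 in EBSS. The 4 groups did not overlap, with Vps15KO basal lowest and WT EBSS highest. The ratio of group means was 2.79 in WT (adjusted p = 5.04e-12) and 2.62 in Vps15KO (adjusted p = 1.40e-11). The change ranked 168th among rises over all genes tested in WT and 147th in Vps15KO.

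Srsf6 (chr2:162931508-162937121, plus strand), a regulator of alternative exons known from skin, read 3286, 2896 and 3069 normalized counts in WT basal and 5990, 6387 and 6306 in WT EBSS. The Vps15KO counts were 2170, 1942 and 1946 in basal medium and 5255, 5110 and 5053 in EBSS. Again no 2 groups overlapped. It rose 2.02-fold in WT (log2 1.01 ± 0.06, adjusted p = 1.85e-10) and 2.55-fold in Vps15KO (log2 1.34 ± 0.06, adjusted p = 5.90e-12).

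Srsf2 (chr11:116849897-116853675, minus strand), a factor of constitutive and enhancer-dependent splicing, read 2540, 2294 and 2596 normalized counts in WT basal and 4705, 4339 and 4706 in WT EBSS. Its counts in Vps15KO were 1954, 1815 and 1858 in basal medium and 4374, 4107 and 4015 in EBSS. The media were apart in each genotype, and the genotypes were apart in basal medium and overlapped in EBSS. The rise was 1.85-fold in WT (adjusted p = 1.28e-09) and 2.22-fold in Vps15KO (adjusted p = 5.74e-11). Srsf2 overlaps Mettl23 and Mfsd11 on the other strand, and whether the counting used the strand is not given in the sources used here.

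Srsf5 (chr12:80945495-80950507, plus strand), first described as an RNA that rises early in growing liver cells, read 7269, 5902 and 7924 normalized counts in WT basal and 10309, 12092 and 13234 in WT EBSS. In Vps15KO it read 5812, 5371 and 5645 in basal medium and 12468, 12809 and 13266 in EBSS. WT libraries spread more than Vps15KO libraries in both media, and the media did not overlap in either genotype. The ratio was 1.69 in WT (log2 0.76 ± 0.09, adjusted p = 1.54e-06) and 2.29 in Vps15KO (log2 1.19 ± 0.09, adjusted p = 7.68e-09).

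Srsf9 (chr5:115327163-115333843, plus strand), an SR protein with a short serine-arginine tail, went the other way. It read 1412, 1734 and 1424 normalized counts in WT basal and 1034, 1017 and 1040 in WT EBSS. Vps15KO libraries read 1184, 1282 and 1216 in basal medium and 895, 875 and 826 in EBSS. The groups did not overlap between media, and Vps15KO was below WT in each medium. It fell to 0.677 of its level in WT (log2 -0.55 ± 0.07, adjusted p = 3.91e-06) and to 0.705 in Vps15KO (log2 -0.49 ± 0.07, adjusted p = 2.14e-05). When the dependence on transcript length and GC content was taken out of each library, the calls held and the changes became -0.24 and -0.26.

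Srsf1 (chr11:88046499-88053757, plus strand), the best known SR protein, read 3407, 2733 and 3375 normalized counts in WT basal and 4574, 4561 and 4271 in WT EBSS. The Vps15KO counts were 2714, 2562 and 2702 in basal medium and 3387, 3193 and 3325 in EBSS. The media were apart in both genotypes, and WT basal replicate 2 read close to the Vps15KO basal libraries. The log2 rise was 0.50 ± 0.07 in WT (adjusted p = 1.07e-05) and 0.31 ± 0.07 in Vps15KO (adjusted p = 0.00165). After correction for length and GC content these were 0.19 and 0.11, and the latter was no longer called (adjusted p = 0.0620).

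Srsf7, which with Srsf3 links splicing to export, rose by 0.50 in WT and 0.63 in Vps15KO and ranged from 1585 to 2797 normalized counts over the 12 libraries. Srsf4, Srsf10 and Srsf11 were called higher in EBSS in Vps15KO and not in WT. By the limma interaction term, the change was called different between genotypes for Srsf10 and Srsf11 and not for Srsf4 (adjusted p = 0.154). Srsf4 had the fewest reads of those tested, 240 to 427 normalized counts, and its change was 0.03 ± 0.12 in WT and 0.38 ± 0.12 in Vps15KO (adjusted p = 0.0101). That call was lost without Vps15KO basal replicate 1 or without Vps15KO EBSS replicate 1 (adjusted p from 0.0640 to 0.0730).

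Stretches before the start of 4 SR genes are shown because Srsf3, Srsf6 and Srsf5 had large rises in EBSS and Srsf9 the only fall. They are the bases of the RefSeq windows (GRCm38.p6) that lie before each gene's RefSeq start, read 5′ to 3′ on the plus strand. They were also cut before the gene's first exon in GENCODE, so that of Srsf3 ends at 29032627, short of the RefSeq start at 29032660. Capitals mark TGACG or its reverse complement CGTCA, the core of the site bound by CREB and ATF factors. They are Srsf3 chr17:29032410-29032627, Srsf6 chr2:162931258-162931507, Srsf5 chr12:80945249-80945494 and Srsf9 chr5:115326927-115327162. The Srsf3 stretch overlaps an exon of Gm16196 and that of Srsf5 an exon of Gm20337.
Srsf3: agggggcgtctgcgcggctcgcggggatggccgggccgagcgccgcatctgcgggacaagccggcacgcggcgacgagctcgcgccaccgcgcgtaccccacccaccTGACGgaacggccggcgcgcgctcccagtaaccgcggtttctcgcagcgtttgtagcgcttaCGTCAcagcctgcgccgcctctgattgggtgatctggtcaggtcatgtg
Srsf6: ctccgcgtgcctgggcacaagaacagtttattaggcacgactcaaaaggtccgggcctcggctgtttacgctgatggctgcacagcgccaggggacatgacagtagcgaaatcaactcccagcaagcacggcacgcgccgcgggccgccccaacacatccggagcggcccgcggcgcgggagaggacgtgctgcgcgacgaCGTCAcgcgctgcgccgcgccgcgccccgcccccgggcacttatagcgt
Srsf5: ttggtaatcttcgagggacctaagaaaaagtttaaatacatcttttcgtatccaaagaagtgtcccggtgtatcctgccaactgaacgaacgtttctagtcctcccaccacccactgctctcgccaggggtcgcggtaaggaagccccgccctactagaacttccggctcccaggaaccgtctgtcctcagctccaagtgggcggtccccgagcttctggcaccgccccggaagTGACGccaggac
Srsf9: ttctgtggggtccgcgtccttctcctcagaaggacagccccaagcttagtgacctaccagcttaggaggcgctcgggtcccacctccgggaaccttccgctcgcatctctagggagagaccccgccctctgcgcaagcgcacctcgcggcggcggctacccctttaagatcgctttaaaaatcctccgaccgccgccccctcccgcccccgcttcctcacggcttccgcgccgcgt

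The letters TGACG, on either strand, stood in 2 places in the stretch shown for Srsf3, 1 in that of Srsf6 and 1 in that of Srsf5, and in none of that of Srsf9. The whole RefSeq windows, which run past these stretches, held 3 in Srsf3, 2 in Srsf5, 1 in Srsf6 and 0 in Srsf9. RefSeq windows of 300 bases (250 before the start and 50 after) were found for 29 of the 31 genes, not for Hnrnpll and Hnrnpul2. TGACG was in 17 of the 29 windows (58.6%), among them 7 of 11 SR and 10 of 18 hnRNP genes, against 21.0% of the windows of 27025 genes and 31.2% of those of 10879 genes tested. Of the 16 genes called higher in EBSS in both genotypes, 11 had it. Srsf7, Hnrnpa1, Hnrnpab, Hnrnpdl and Hnrnpf were the others of the 16 and lacked it. Hnrnpa0, Hnrnpa2b1, Hnrnpa3, Hnrnpr, Srsf10 and Srsf11 had it without being called higher in both. Hnrnpd, Hnrnph3, Hnrnpu, Hnrnpul1, Srsf4, Srsf9 and the untested Srsf12 lacked it and were not called higher in both. The stretches shown were chosen by the EBSS change of their genes, and whether TGACG goes with that change was not tested. The palindrome TGACGTCA, which contains TGACG, was in none of the 29, against 1.88% and 3.19%.

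Other letters were searched on both strands in the same windows. CCAAT was in 16 of 29 windows (55.2%, against 38.9% of genes tested), and GGGCGG, the GC box, in 23 (79.3%, against 63.0%). CACGTG, the E-box, was in 4 (13.8%, against 10.1%), TGANTCA, the AP-1 site, in 1 (3.45%, against 5.25%) and GTAAACA, a forkhead site, in 1, that of Srsf6 (3.45%, against 2.48%). TATAAA was in 4 windows (13.8%, against 7.32%), those of Srsf2, Srsf3, Hnrnpm and Hnrnpab. The motifs were chosen with earlier results known, and a match is a run of letters, not a site shown to be bound.

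All 20 hnRNP genes passed the filter. In EBSS 15 rose in WT and 11 in Vps15KO, and limma called none lower in either, nor had any of them a fall at an unadjusted p under 0.05. Over all genes 31.4% were called higher and 31.3% lower in WT, and 25.9% and 26.1% in Vps15KO. Hnrnpa3 (-0.07) and Hnrnpul1 (-0.10) had all Vps15KO EBSS libraries below all Vps15KO basal ones, without being called. With voom on the reads no hnRNP gene was called lower either, but other alternatives gave such calls. With length and GC trends removed Hnrnpa3 (-0.26), Hnrnpd (-0.40) and Hnrnpu (-0.23) were called lower in WT and Hnrnpa3 (-0.26) in Vps15KO, and with quantile normalization 1 hnRNP gene was called lower in each genotype. Hnrnpm, which binds GU-rich introns, had the largest rise in WT: it read 3342, 3324 and 3483 normalized counts in basal medium and 6031, 5446 and 5510 in EBSS (log2 0.74 ± 0.06, adjusted p = 8.83e-09). Its counts in Vps15KO were 2986, 3028 and 2891 and then 4753, 4210 and 4319 (log2 0.57 ± 0.06, adjusted p = 3.90e-07). The media were far apart in both genotypes. Hnrnph2, a binder of G-runs, rose by 0.60 and 0.61, and its relative Hnrnph1 by 0.48 and 0.50. Hnrnpa1, the most studied splicing silencer of the family, rose by 0.49 and 0.51, from 10310 to 12108 normalized counts over the 6 basal libraries to 15282 to 17047 over the 6 in EBSS.

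Hnrnpk, a poly-C binding protein, rose by 0.42 in WT and 0.26 in Vps15KO, and Hnrnpab by 0.47 and 0.24. Hnrnpdl rose by 0.26 and 0.36, and Hnrnpl, a binder of CA repeats, by 0.18 and 0.29. In Vps15KO the Hnrnpab call was lost without EBSS replicate 1 (adjusted p = 0.0744). In WT that of Hnrnpl was lost without basal replicate 1, and without EBSS replicate 3.

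Another 5 hnRNP genes, Hnrnpa0, Hnrnpa2b1, Hnrnpr, Hnrnpul1 and Hnrnpul2, were called higher in WT and not in Vps15KO. Their changes were 0.17 to 0.30 in WT and -0.10 to 0.09 in Vps15KO. By the limma interaction term, the change was called different between genotypes for Hnrnpul1 alone (adjusted p = 0.0445). For the others of the 5 the adjusted p was 0.0934 to 0.453. The calls of Hnrnpa0, Hnrnpa2b1, Hnrnpr and Hnrnpul1 were each lost when single libraries were left out. Without both WT libraries that stand apart, Hnrnpa2b1 had a change of 0.12 (adjusted p = 0.0830) and Hnrnpr of 0.12 (adjusted p = 0.0660). Hnrnpd, which binds AU-rich elements, was called in Vps15KO alone (0.23 ± 0.07, adjusted p = 0.0131). The interaction term was not called for it (adjusted p = 0.0518). Its change in Vps15KO was -0.02 after correction for length and GC content, and the call was also lost without Vps15KO basal replicate 3. Hnrnpa3, Hnrnph3, Hnrnpll and Hnrnpu, the scaffold attachment factor, were called in neither genotype.

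**Figure D3:**
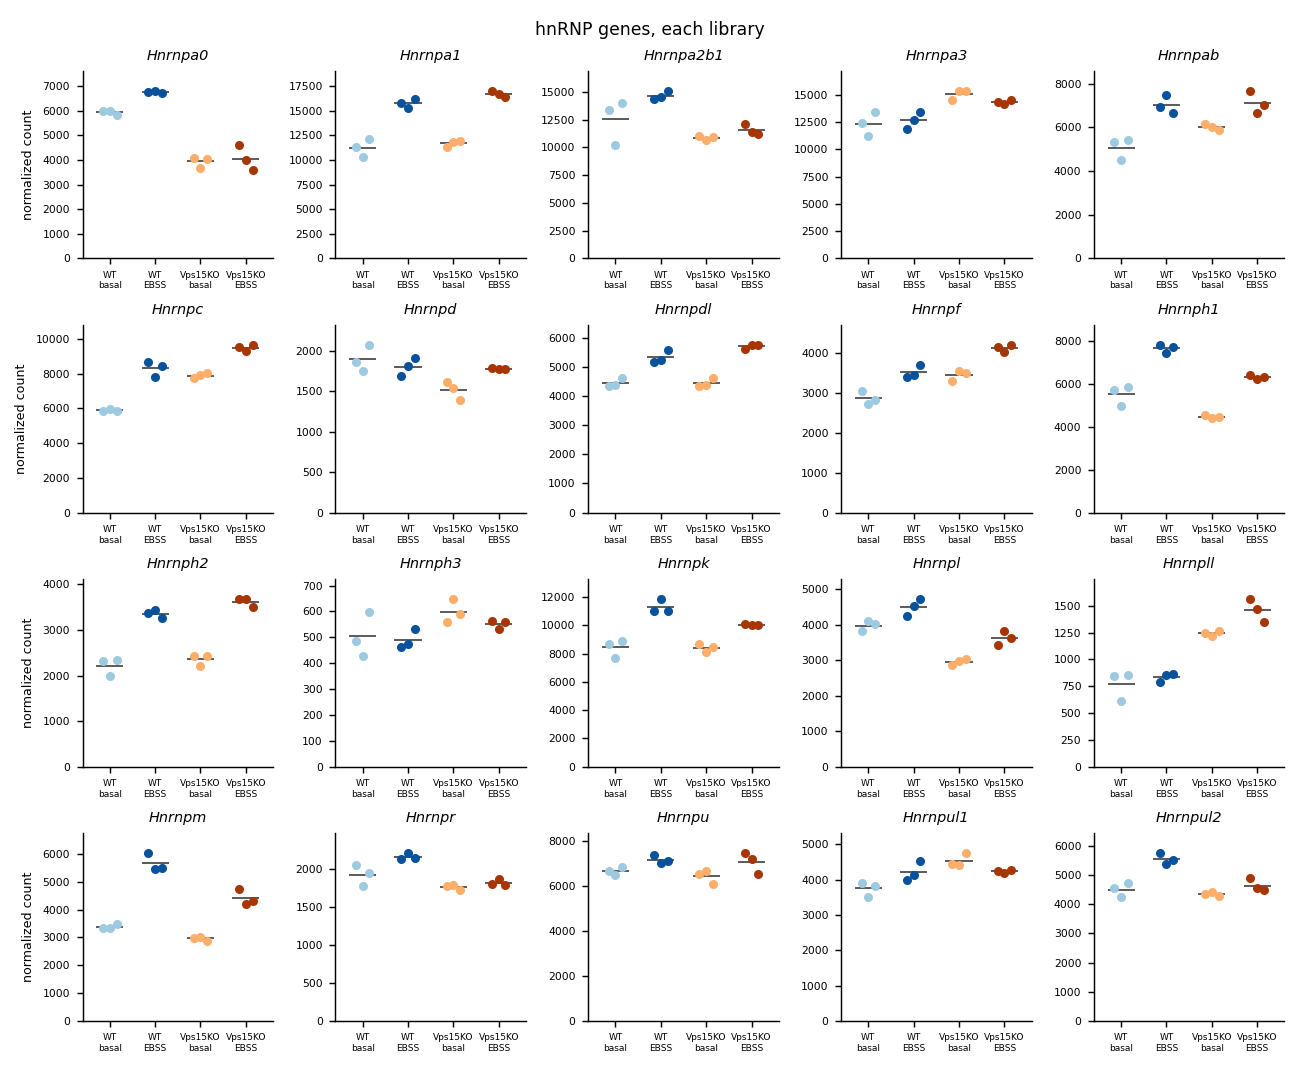
Normalized counts of the 20 hnRNP genes, on linear axes from 0; points are libraries, 3 a group, and lines are group means. Hnrnpm, Hnrnpa1, Hnrnph1, Hnrnph2 and Hnrnpk are higher in EBSS in both genotypes, while Hnrnpll is higher and Hnrnpa0 lower in Vps15KO in both media.

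Per kilobase, Hnrnpa1 and Hnrnpa2b1 were highest over all libraries, with means of 7228 and 7178 normalized counts per kb, and Srsf5 had 5958. The order turned between groups. In WT basal Hnrnpa2b1 (7250) was above Hnrnpa1 (5860), and in Vps15KO EBSS Srsf5 (8194) was above Hnrnpa2b1 (6701) and below Hnrnpa1 (8712). Hnrnpk (3215), Hnrnpc (2773), Hnrnpab (2664), Hnrnpa3 (2641) and Hnrnph1 (2472) followed. Hnrnpc, Hnrnpab and Hnrnpa3 differed in these means by less than each moved between groups, so their order is not fixed. Among hnRNP genes the lowest means were those of Hnrnph3 at 242 and Hnrnpr at 89.4, and the latter rests on a transcript model of 21452 bases.

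The EBSS comparisons of the 2 genotypes share no library but rest on the same estimate of each gene's spread. Of the 30 genes, 16 were called higher in both. They were Srsf1, Srsf2, Srsf3, Srsf5, Srsf6, Srsf7 and 10 hnRNP genes, Hnrnpa1, Hnrnpab, Hnrnpc, Hnrnpdl, Hnrnpf, Hnrnph1, Hnrnph2, Hnrnpk, Hnrnpl and Hnrnpm. Srsf9 was called lower in both. None of the 30 was called in opposite directions. Such joint calls were not counted over all genes. Of all genes, 31.4% were called higher and 31.3% lower in WT, and 25.9% and 26.1% in Vps15KO. Summed epithelial markers moved with the medium as well, from 0.976 to 6.998 normalized counts in basal libraries to 28.5 to 35.2 in EBSS libraries, mostly through Krt8. Epcam stayed below 1 in every library. Summed muscle markers were 1759 to 2565 in WT basal and 1297 to 1328 in WT EBSS, mostly Tnnt3. The part of either in these results was not tested.

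**Figure D4:**
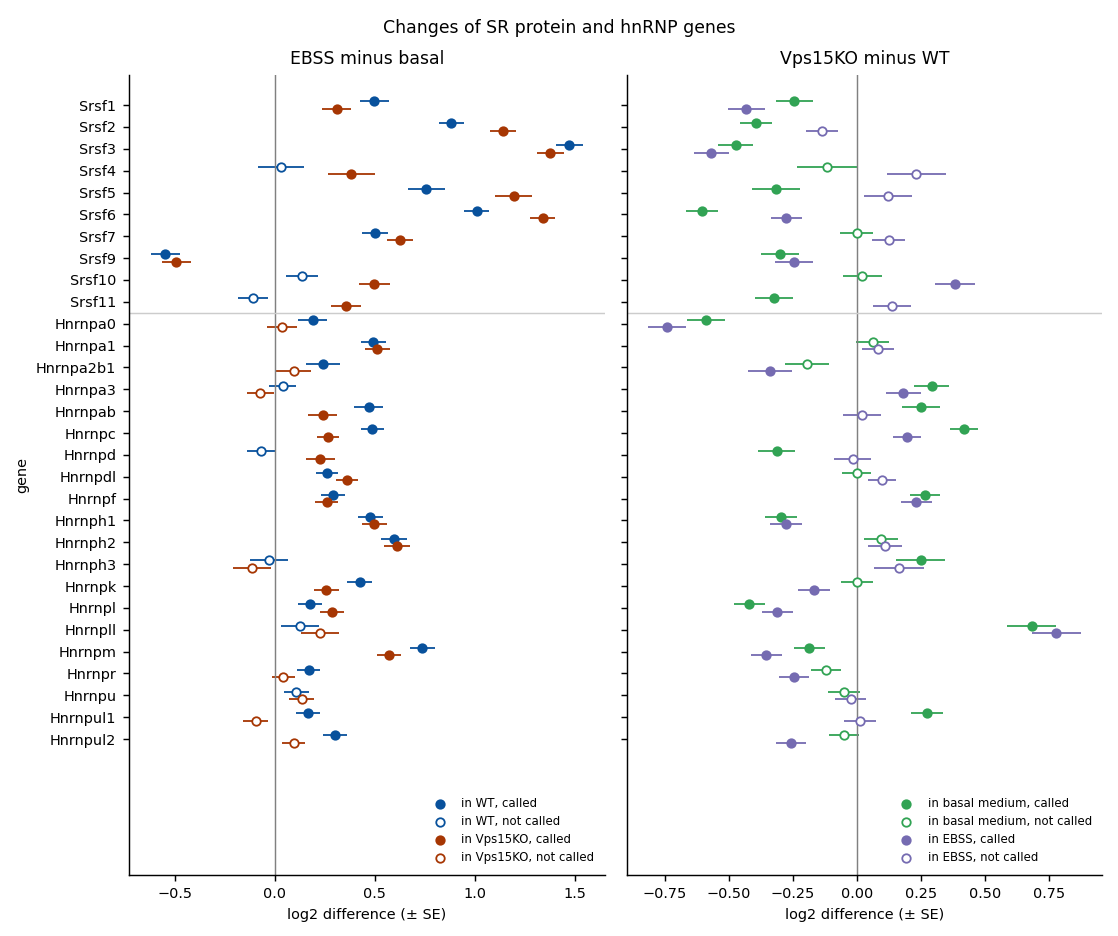
Log2 difference (± SE of the limma fit) of each gene tested, for EBSS minus basal medium (left) and Vps15KO minus WT (right); filled points were called at adjusted p under 0.05 and open points were not. On the left most points lie right of 0 and Srsf9 lies left in both genotypes; on the right SR genes lie mostly left of 0 in basal medium, and hnRNP genes lie on both sides.

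Between genotypes, SR genes were mostly lower in Vps15KO in basal medium, while hnRNP genes lay on both sides of WT. In basal medium 7 of the 10 SR genes tested were lower in Vps15KO and none was called higher by limma, by voom or at an unadjusted p under 0.05, while 5 hnRNP genes were lower and 7 higher. With length and GC trends removed, 9 SR genes were lower and 9 hnRNP genes lower and 6 higher. Over all genes, 29.3% were called higher and 29.2% lower in this comparison. The median log2 difference was -0.31 for SR genes and -0.00 for hnRNP genes, beside -0.01 for all genes. In EBSS 4 SR genes were lower and 1 higher, and 8 hnRNP genes were lower and 4 higher, against 29.4% higher and 27.8% lower over all genes. Without both WT libraries that stand apart, 6 genes of the 2 families were higher and 14 lower in basal medium, and 6 higher and 12 lower in EBSS. The genotypes did not overlap for 6 genes higher and 12 lower in basal medium (30.5% and 31.1% of all genes) and for 10 higher and 12 lower in EBSS (33.8% and 32.5%). With quantile normalization the EBSS split over both families, 5 higher and 12 lower, became 8 and 10. The comparisons of genotype share the control libraries of the EBSS comparisons, so the values below are set side by side only.

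Srsf6 was the SR gene that differed most in basal medium, with 2170, 1942 and 1946 normalized counts in Vps15KO against 3286, 2896 and 3069 in WT (log2 -0.60 ± 0.06, adjusted p = 1.77e-07). In EBSS it was lower by a smaller amount (-0.28 ± 0.06, adjusted p = 0.000951). Srsf3 was lower in both media, by -0.47 ± 0.07 in basal medium (adjusted p = 1.01e-05) and -0.57 ± 0.07 in EBSS (adjusted p = 1.05e-06). Srsf1 differed by -0.25 and -0.43 and Srsf9 by -0.30 and -0.25, all called. Srsf2 was lower in basal medium (-0.39 ± 0.06, adjusted p = 3.08e-05) and was not called in EBSS (-0.14, adjusted p = 0.0706). Srsf5 was lower in basal medium (-0.31 ± 0.09, adjusted p = 0.00784), a call lost without WT basal replicate 3 (adjusted p = 0.0541).

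Srsf10 (chr4:135855752-135869908, plus strand), known as a repressor of splicing when dephosphorylated, was the SR gene called higher in Vps15KO, in EBSS alone. It read 1760, 1434 and 1762 normalized counts in WT basal, 1827, 1779 and 1826 in WT EBSS, 1827, 1538 and 1656 in Vps15KO basal and 2481, 2328 and 2295 in Vps15KO EBSS. The Vps15KO EBSS libraries stood above all others, which ranged from 1434 to 1827. The difference between genotypes was 0.38 ± 0.08 in EBSS (adjusted p = 0.000386) and 0.02 ± 0.08 in basal medium.

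Srsf11 (chr3:158010915-158036667, minus strand), an SR protein found with early splicing complexes, read 3771, 3279 and 4092 normalized counts in WT basal and 3222, 3334 and 3752 in WT EBSS. In Vps15KO it read 2996, 2822 and 3024 in basal medium and 3773, 3744 and 3807 in EBSS. WT libraries overlapped between media, and Vps15KO libraries did not. It was lower in Vps15KO in basal medium (-0.33 ± 0.07, adjusted p = 0.00102) and not called in EBSS (0.14 ± 0.07, adjusted p = 0.122).

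Hnrnpa0 (chr13:58125879-58128556, minus strand), an hnRNP that binds AU-rich elements of cytokine mRNAs, had the largest genotype difference below WT of both families in EBSS. It read 5971, 5984 and 5828 normalized counts in WT basal and 6761, 6806 and 6709 in WT EBSS. Vps15KO libraries read 4079, 3679 and 4048 in basal medium and 4596, 3975 and 3583 in EBSS. Every Vps15KO library was thus below every WT library. The log2 difference was -0.59 ± 0.07 in basal medium (adjusted p = 1.76e-06) and -0.74 ± 0.07 in EBSS (adjusted p = 9.04e-08).

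Hnrnpll (chr17:80029487-80062268, minus strand), known for exon choice in Ptprc in lymphocytes, was the gene with the largest difference above WT. It read 845, 616 and 855 normalized counts in WT basal and 793, 858 and 861 in WT EBSS. The Vps15KO counts were 1246, 1215 and 1265 in basal medium and 1562, 1466 and 1346 in EBSS, above all WT libraries. The log2 difference was 0.68 ± 0.09 in basal medium (adjusted p = 7.06e-06) and 0.78 ± 0.09 in EBSS (adjusted p = 1.35e-06). Ptprc itself was below 2 normalized counts in every library.

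Hnrnpc (chr14:52073377-52104039, minus strand), a core hnRNP that binds U-runs, read 5862, 5972 and 5869 normalized counts in WT basal and 8641, 7809 and 8429 in WT EBSS. Its counts in Vps15KO were 7718, 7911 and 8025 in basal medium and 9523, 9324 and 9648 in EBSS. Genotypes were apart in both media, and Vps15KO basal overlapped WT EBSS. The genotype difference was 0.42 ± 0.06 in basal medium (adjusted p = 4.00e-06) and 0.20 ± 0.06 in EBSS (adjusted p = 0.00528). Correction for length and GC content made these 0.25 and 0.09, and the EBSS difference was no longer called (adjusted p = 0.161).

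Hnrnpa3 (chr2:75659105-75669407, plus strand), a relative of Hnrnpa1, read 12400, 11214 and 13399 normalized counts in WT basal and 11883, 12662 and 13439 in WT EBSS. In Vps15KO it read 14531, 15382 and 15322 in basal medium and 14327, 14143 and 14530 in EBSS. All Vps15KO libraries lay above all WT libraries, and in WT the media overlapped. The genotype difference was 0.29 ± 0.07 in basal medium (adjusted p = 0.00128) and 0.18 ± 0.07 in EBSS (adjusted p = 0.0311). The former became 0.14 after correction for length and GC content. The EBSS call was lost without either of WT EBSS replicates 1 and 2 and without any 1 of the Vps15KO EBSS libraries.

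Hnrnpf (chr6:117900340-117925622, plus strand), which binds G-runs as Hnrnph1 does, read 3058, 2723 and 2837 normalized counts in WT basal and 3413, 3453 and 3703 in WT EBSS. Vps15KO libraries read 3308, 3550 and 3513 in basal medium and 4168, 4036 and 4216 in EBSS. Vps15KO lay above WT in each medium. The difference was 0.27 ± 0.06 in basal medium (adjusted p = 0.000885) and 0.23 ± 0.06 in EBSS (adjusted p = 0.00270).

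Hnrnpab, Hnrnph3 and Hnrnpul1 were also higher in Vps15KO in basal medium, by 0.25, 0.25 and 0.27. That of Hnrnph3 was lost without both WT libraries that stand apart (0.14, adjusted p = 0.133) and without any 1 of WT basal replicates 1 and 2 and Vps15KO basal replicates 2 and 3. Hnrnpl was lower in Vps15KO in both media (-0.42 and -0.31), as were Hnrnph1 (-0.30 and -0.28) and Hnrnpm (-0.19 and -0.35). Hnrnpd was lower in basal medium alone (-0.31), and Hnrnpa2b1, Hnrnpk, Hnrnpr and Hnrnpul2 in EBSS alone (-0.34 to -0.17). The call of Hnrnpk was lost without WT EBSS replicate 2, without any 1 of the Vps15KO EBSS libraries and in 3 other alternatives (adjusted p from 0.0504 to 0.242). The Hnrnpm call in basal medium was lost without Vps15KO basal replicate 3 (adjusted p = 0.0557).

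Markers moved with the genotype too. In Vps15KO 10 of 11 fibroblast markers tested were lower in basal medium and 8 in EBSS. The summed macrophage and leukocyte markers were 802 to 897 normalized counts in WT and 2637 to 3799 in Vps15KO, nearly all Cd68, while 5 of the 7 genes stayed under 10 in every library. Summed endothelial markers were 24.5 to 46.1 in WT and 112 to 134 in Vps15KO, mostly Vwf. Summed neural markers were 2324 to 2550 in WT and 1611 to 1927 in Vps15KO, and summed muscle markers 1297 to 2565 and 721 to 1050. Their part in the differences of SR and hnRNP genes was not tested.

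The EBSS effect itself differed between genotypes for 5 of the 30 genes by the interaction term of the limma fit, 4 larger and 1 smaller in Vps15KO. Here and below, larger and smaller refer to the signed log2 change, so that a weaker fall in Vps15KO counts as larger. Over all genes 9.55% were called in the former direction and 8.24% in the latter. The median difference was 0.29 for SR genes, -0.10 for hnRNP genes and -0.00 for all genes. With quantile normalization 5 were called larger and 0 smaller. Srsf11 differed by 0.46 ± 0.10 (adjusted p = 0.00501), from -0.11 in WT to 0.35 in Vps15KO. Srsf6 differed by 0.33 ± 0.09 (adjusted p = 0.0145), and both calls held in every alternative run except, for Srsf6, adjusted p under 0.01.

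Srsf5 differed by 0.43 ± 0.13 (adjusted p = 0.0296) and Srsf10 by 0.36 ± 0.11 (adjusted p = 0.0297). Hnrnpul1 (chr7:25721161-25756268, minus strand), an hnRNP U relative that also acts at DNA breaks, differed by -0.26 ± 0.09 (adjusted p = 0.0445). It read 3906, 3521 and 3822 normalized counts in WT basal and 3977, 4141 and 4515 in WT EBSS, so that all EBSS libraries lay above. The Vps15KO counts were 4451, 4410 and 4748 in basal medium and 4239, 4198 and 4285 in EBSS, so that all EBSS libraries lay below. The calls of Srsf5, Srsf10 and Hnrnpul1 were lost in 10, 9 and 11 of 22 alternatives, with adjusted p-values of 0.0510 to 0.120.

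Srsf2 (0.26, adjusted p = 0.0522), Hnrnpd (0.30, adjusted p = 0.0518) and Hnrnpc (-0.22, adjusted p = 0.0590) were just past the threshold. For Srsf3, with the largest rise in each genotype, the difference was -0.10 and its interval at 95% confidence -0.30 to 0.11. For Hnrnpa1 it was 0.02 (-0.17 to 0.21), and for Srsf9 0.05 (-0.16 to 0.27). Without WT basal replicate 2, 7 genes had a larger effect in Vps15KO and 2 a smaller one, and without both WT libraries that stand apart these were 6 and 2.

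**Figure D5:**
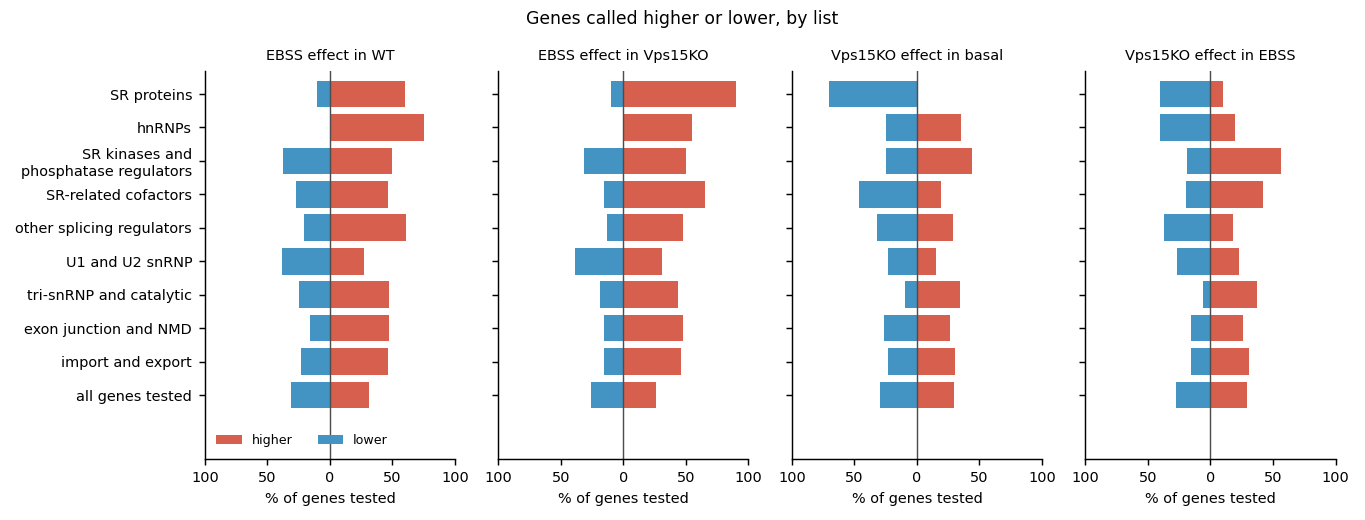
Percent of the genes tested in each list that were called higher (right of 0) or lower (left of 0) by limma at adjusted p under 0.05, in 4 comparisons; the last row is all genes tested. The SR row reaches furthest right for EBSS in Vps15KO, with 9 of 10 genes, and furthest left for Vps15KO in basal medium, with 7 of 10.

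Genes that act with SR proteins and hnRNPs were described by lists, and no set test was made. The counts below stand beside the shares of all genes called. In EBSS these were 31.4% higher and 31.3% lower in WT, and 25.9% and 26.1% in Vps15KO. For Vps15KO against WT they were 29.3% and 29.2% in basal medium and 29.4% and 27.8% in EBSS. The signed log2 change in EBSS was called larger in Vps15KO for 9.55% of all genes and smaller for 8.24%. Among 16 kinases of SR proteins and related phosphatase regulators, 8 rose and 6 fell in EBSS in WT, and 8 rose and 5 fell in Vps15KO. Cdk12, a kinase of RNA polymerase II, rose by 1.28 ± 0.08 in WT (adjusted p = 2.97e-10) and 1.37 ± 0.08 in Vps15KO (adjusted p = 1.66e-10). Dyrk1a, a kinase of nuclear speckle proteins, rose by 0.95 and 0.99. Of the SRPK and CLK genes, group means of Srpk1, Clk2 and Clk3 were lower in EBSS in both genotypes. Those of Srpk2, Clk1 and Clk4 were higher in both, and that of Srpk3 was lower in WT and higher in Vps15KO. Srpk1 went from 1340 to 869 normalized counts in WT and from 1704 to 1403 in Vps15KO. Srpk2 went from 1448 to 2130 and from 1707 to 2507. Between genotypes Srpk1, the main cytoplasmic SR protein kinase, was higher in Vps15KO in EBSS (0.67 ± 0.06, adjusted p = 1.51e-08). Clk2, which phosphorylates SR proteins in the nucleus, was lower in Vps15KO in basal medium (-0.67 ± 0.10, adjusted p = 1.11e-05). Srpk3, the muscle member, had a mean of 74.2 ± 4.74 in WT basal libraries and of 7.18 ± 2.03 in those of Vps15KO (normalized counts, adjusted p = 3.27e-09).

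Of 26 SR-related cofactors, 12 rose and 7 fell in EBSS in WT, and 17 rose and 4 fell in Vps15KO. Bclaf1 and Thrap3, paired arginine-serine-rich proteins, read 1555 ± 147 and 2875 ± 82.3 normalized counts in WT basal and 3767 ± 193 and 5658 ± 262 in WT EBSS. In Vps15KO basal 12 of the 26 were lower than in WT and 5 higher, among the former Acin1, a part of the exon junction machinery (-0.74 ± 0.06, adjusted p = 4.48e-09). In EBSS 11 were higher in Vps15KO and 5 lower. The signed log2 change in EBSS was larger in Vps15KO for 11 and smaller for 1. A weaker fall, such as that of Snrnp70, counts as larger. Snrnp70, the U1 70K protein that SR proteins contact, read 7482 ± 627 and 4134 ± 249 normalized counts in WT basal and EBSS, and 5344 ± 225 and 5046 ± 161 in Vps15KO.

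Of 38 other RNA-binding splicing regulators tested, many of them hnRNPs by another name, 23 rose and 8 fell in WT EBSS, and 18 rose and 5 fell in Vps15KO. Sfpq, a paraspeckle protein, rose by 1.03 in WT and by 0.97 in Vps15KO. Between genotypes 11 were higher and 12 lower in basal medium, and 7 higher and 14 lower in EBSS. Cirbp, the cold-inducible RNA-binding protein, was far lower in Vps15KO, with 994 ± 36.8 normalized counts in WT basal against 318 ± 23.0 in Vps15KO basal (log2 -1.56 ± 0.08, adjusted p = 3.50e-11).

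Core spliceosome genes were counted likewise, beside the same shares over all genes as given for the first list. Among 26 U1, U2 and splice site factors, 7 rose and 10 fell in EBSS in WT, and 8 rose and 10 fell in Vps15KO. Dhx15, a helicase, had the largest rise in WT (1.08 ± 0.09), and Snrpd2 the largest fall in Vps15KO (-0.65 ± 0.11). Among 32 tri-snRNP and catalytic proteins, 15 rose and 8 fell in WT and 14 rose and 6 fell in Vps15KO. In the latter list 11 were higher and 3 lower in Vps15KO basal, and 12 higher and 2 lower in Vps15KO EBSS, with Usp39, a tri-snRNP factor, at 0.83 and 0.94. Of 19 exon junction and nonsense-mediated decay genes, 9 rose and 3 fell in each genotype, with Upf2 at 0.67 and 0.70, while Upf1, the helicase of that decay, was lower in Vps15KO (-0.81 and -0.94). EBSS raised 6 and lowered 3 of the 13 import and export genes tested in WT, and raised 6 and lowered 2 in Vps15KO. Tnpo1, the import receptor of Hnrnpa1, rose by 1.35 in WT and 0.63 in Vps15KO, while Nxt1 fell (-0.88 and -0.82). Ddx39, the 14th of that list, was not found under its symbol.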

How the data were processed

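Expression was measured by poly-A RNA sequencing in 12 libraries, 3 in each of 4 groups taken from the labels. The deposited table holds 32721 genes in log2 units, read counts scaled by library size factors and put through a variance-stabilizing transformation, as the values themselves show. Per the submitters' processing notes the tools were STAR 2.7.10b, featureCounts, DESeq2 and limma with build mm10, without the role of each. From the table's floor, 3.83, the transformation was inverted, and 100% of values gave whole reads within 0.001. Size factors were 0.945 to 1.02, and tested members had 246 to 17336 reads per library.

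Testing was limited to the 14279 genes whose mean lay 1 or more above this floor, by a group-means model on the deposited log2 values in limma 3.58.1 (R 4.3.3) under empirical Bayes moderation, the variance following a trend (8 residual and 10.2 prior degrees of freedom). The 5 comparisons were EBSS against basal medium in each genotype, Vps15KO against WT in basal medium and in EBSS, and the EBSS effect in Vps15KO minus that in WT. Tests were two-sided, adjusted by Benjamini-Hochberg over all genes within a comparison and called under 0.05. Errors given with log2 changes are the fit's standard errors. A log2 change understates ratios of genes with few reads. The fit was tested on simulated data.

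Values in every library are given for members among the 3 largest rises or falls called in any comparison, with groups that do not overlap except for the difference; other members are given by range and count, and single values were chosen after they were seen, as with Hnrnpm. From each related list up to 3 called genes with the smallest p per comparison could be named. Members, lists, motifs and alternatives were chosen with earlier results of these data known. Replicate numbers did not pair the libraries (correlations of deviations -0.155 to 0.260 for the same number, -0.212 to 0.142 for different numbers). Alternatives were a replicate block, other filters, scalings and scales, voom on the reads worked back, removal of length and GC trends (spline with 5 degrees of freedom, 13527 genes), adjusted p under 0.01, only the groups compared and each library left out. Positions and promoter windows are from RefSeq GRCm38.p6, and transcript lengths from GENCODE. Of the members, 10 overlap a gene on the other strand, and Hnrnpm and Hnrnpul2 a gene on the same strand.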

Additional observations from a re-analysis of the deposited data

Results flagged for a closer look

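For each gene below the EBSS effect differed between genotypes by the interaction term of the limma fit at adjusted p under 0.05, and the value is the log2 EBSS change in Vps15KO minus that in WT. Among the SR and hnRNP genes these were Srsf11 (0.46), Srsf5 (0.43), Srsf10 (0.36), Srsf6 (0.33) and Hnrnpul1 (-0.26). The 4 SR genes had the higher log2 change in Vps15KO, and Hnrnpul1 was the only hnRNP gene called. In WT, Srsf11 (-0.11) and Srsf10 (0.14, adjusted p = 0.136) were not called in EBSS. Over all genes 9.55% were called with a positive value and 8.24% with a negative one.

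Among SR-related cofactors and kinases, Srpk3 (1.07), Snrnp70 (0.77), Srrm2 (0.73), Acin1 (0.50), Cdk11b (0.38) and Srpk1 (0.33) had a larger value in Vps15KO. Srpk3 rested on few reads in Vps15KO, 7.18 ± 2.03 normalized counts in basal medium and 13.1 ± 5.61 in EBSS. In WT group means, Snrnp70 fell in EBSS from 7482 to 4134 and Srrm2 from 16889 to 11483 normalized counts. Cdk11b fell there from 1662 to 1328, Srpk1 from 1340 to 869 and Srpk3 from 74.2 to 34.5. Acin1 rose there from 3937 to 5803. A larger value in Vps15KO was thus not always a larger rise.

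Among the other regulators, Tial1 differed by 0.40, Celf2 by -0.61 and Syncrip, also known as hnRNP Q, by -0.35. In the tri-snRNP list Prpf38b differed by 0.37 and Prpf4 by -0.33. Casc3 of the exon junction complex differed by 0.31, the export factors Nxf1 by 0.36 and Ddx39b by 0.31, and the import receptor Tnpo1 by -0.72.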

How the results depend on the processing

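The counts of SR and hnRNP genes called higher in EBSS in either genotype, and those called in either direction in Vps15KO basal medium or lower in Vps15KO in EBSS, stayed within 1.5 times their main value in every alternative run. Of the calls, 16 of 22 (EBSS in WT), 17 of 21 (EBSS in Vps15KO), 16 of 19 (Vps15KO in basal medium), 13 of 17 (Vps15KO in EBSS) and 2 of 5 (difference of EBSS effects) were kept in every alternative at adjusted p under 0.05. Of the called changes, 1 changed sign in an alternative: that of Hnrnpd in Vps15KO EBSS, -0.02 with length and GC trends removed.

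Genes called lower in EBSS in WT, 1 in the report, numbered 3 with quantile normalization, 5 with length and GC trends removed (Srsf9, Hnrnpa3, Hnrnpd, Hnrnpu and Srsf11), 2 without both WT libraries that stand apart, and 1 to 2 with each library left out, 2 being without WT basal replicate 2. In Vps15KO they numbered 2 with quantile normalization and 2 with length and GC trends removed (Srsf9 and Hnrnpa3), in place of 1. Genes higher in Vps15KO in EBSS, 5 in the report, numbered 8 with quantile normalization and 3 with length and GC trends removed. The cause of these shifts was not tested.

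Genes with a larger EBSS effect in Vps15KO, 4 in the report, numbered 2 with no filter, 2 with no variance trend, 1 at adjusted p under 0.01 and 2 to 7 with each library left out. The 7 came without WT basal replicate 2, and the 2 came without any 1 of WT basal replicates 1 and 3, Vps15KO basal replicates 2 and 3, and replicate 2 of either EBSS group. Genes with a smaller effect, 1 in the report, numbered 0 with no filter, 0 with quantile normalization, 0 with no variance trend, 0 at adjusted p under 0.01, 2 with the filter at 3 above the floor, 2 without both WT libraries that stand apart and 0 to 2 with each library left out: 2 without WT basal replicate 2, and 0 without WT EBSS replicate 3 or any 1 of the 6 Vps15KO libraries.

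With the replicate block the counts higher and lower were 21 and 1 (EBSS in WT), 20 and 1 (EBSS in Vps15KO), 7 and 13 (Vps15KO in basal medium), 5 and 12 (Vps15KO in EBSS) and 5 and 1 (difference). The numbers do not pair the libraries. A group reduced to 2 libraries was tested with the spread pooled over groups. With 3 libraries a group and many calls over all genes, small differences of highly expressed members can pass, and counts per gene do not tell coding from decay-bound transcripts.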
